A study of Mus musculus with 2 samples.

Results

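The immediate early genes Fos, Fosb, Jun, Junb, Egr1, Atf3, Ier2, Btg2, Zfp36 and Nr4a1 were followed through the cell classes of mouse plantaris muscle. They are 10 of the 32285 genes in the count files and were listed by name. All 10 were found in both files. The tenotomy library came from plantaris muscles taken 4 days after tenotomy, and the sham library from the muscles of the other side of the same mice. Both came from 5 male C57BL/6 mice (C57BL/6J in the design text), 12 weeks old, and the series title describes the muscle as mechanically loaded. Tissue of the 5 animals was combined for each side. Type II collagenase was applied at 0.2% over 90 min, and cells that took up Calcein AM and excluded PI were sorted, so muscle fibres are represented only by what passed such a sort. Each pool gave 1 library of single-cell RNA counts, that is, of unique molecular identifiers (UMIs), with no replicate. Treatment, library and any difference in digestion or handling between the pools cannot be told apart.

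Immediate early genes are transcribed within minutes of a growth signal, a mechanical stimulus or a stress, by factors that the cell already holds, and their mRNAs are short-lived. Fos, Fosb, Jun, Junb and Atf3 encode leucine zipper proteins that pair into AP-1 and related factors, Egr1 a zinc finger factor, and Nr4a1 an orphan nuclear receptor. Ier2 encodes a small nuclear protein, Btg2 an antiproliferative protein that binds the CCR4-NOT deadenylase, and Zfp36 tristetraprolin, which brings mRNAs with AU-rich elements to decay. In skeletal muscle the same genes are known to respond to loading and to the enzymatic dissociation of the tissue. On mm10 (GENCODE vM21) the AP-1 genes lie at chr12:85473890-85477273 (Fos), chr7:19302696-19310051 (Fosb), chr4:95049034-95052222 (Jun) and chr8:84974484-84978718 (Junb), and Atf3 at chr1:191170296-191218039. Nr4a1 lies at chr15:101254269-101274795, Ier2 at chr8:84661331-84662852, Btg2 at chr1:134075170-134079120 and Zfp36 at chr7:28376784-28380253.

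Promoter windows, 250 bases before to 50 bases after the start site in RefSeq on mm10, were searched on both strands for letters of known response elements, to show which of these genes share them. Windows were at hand for 9 of the 10 genes, and 8 were searched. Ier2 had no window, and that of Egr1 was not searched, so nothing is said of these genes. The full cAMP response element TGACGTCA occurred in Btg2 alone of the 8, and in 1.79% of 32851 windows. Its first letters, TGACG, occurred in 6 of 8 (Fos, Fosb, Junb, Atf3, Btg2 and Nr4a1) and in 20.8% of all windows, a motif added after the windows had been seen, and every full match also counts here. The CArG box of serum response factor occurred in Zfp36 alone of the 8, and in 1.63% of all windows. TATAAA occurred in Fos and Junb and in 13.6% of all windows. The AP-1 letters TGANTCA and the Egr1 letters GCGTGGGCG occurred in none of the 8, and in 7.81% and 0.612% of all windows. A match describes letters only, and sites outside the windows were not looked for. The bases before the start are given for Fos, with 2 TGACG matches and a TATAAA, for Btg2, with the full element, and for Nr4a1, with 4 TGACG matches on the other strand, 5′ to 3′ in the direction of transcription with the matches in capitals. Fos lies on the plus strand at chr12:85473640-85473889, Btg2 on the minus strand at chr1:134079156-134079405, and Nr4a1 on the plus strand at chr15:101266596-101266845, inside an intron of the longest annotated Nr4a1 transcript.
Fos: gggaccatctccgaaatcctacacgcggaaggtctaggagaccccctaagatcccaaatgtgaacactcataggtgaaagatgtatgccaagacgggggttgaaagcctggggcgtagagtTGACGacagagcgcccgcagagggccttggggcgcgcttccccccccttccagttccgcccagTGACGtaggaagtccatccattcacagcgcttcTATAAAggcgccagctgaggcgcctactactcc
Btg2: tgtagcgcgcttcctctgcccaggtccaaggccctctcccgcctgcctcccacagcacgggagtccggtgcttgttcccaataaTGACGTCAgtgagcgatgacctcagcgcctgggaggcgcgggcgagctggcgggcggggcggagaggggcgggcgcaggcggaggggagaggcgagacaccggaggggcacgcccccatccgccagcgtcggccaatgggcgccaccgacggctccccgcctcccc
Nr4a1: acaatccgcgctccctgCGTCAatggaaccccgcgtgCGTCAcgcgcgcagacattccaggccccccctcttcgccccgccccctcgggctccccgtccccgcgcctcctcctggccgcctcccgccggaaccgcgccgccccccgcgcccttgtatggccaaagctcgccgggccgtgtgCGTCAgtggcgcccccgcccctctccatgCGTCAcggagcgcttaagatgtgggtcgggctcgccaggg

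Filtering left 10946 tenotomy and 7548 sham cells. Their median depth was 5863 UMIs in tenotomy and 4857.5 UMIs in sham, and their median mitochondrial share 3.11% in tenotomy and 3.18% in sham. Clusters were made without the immediate early, heat shock and unfolded protein genes, so that their levels did not define the classes, and each class was named from marker genes and ends in "-like". Of 13 named classes, 8 had 50 or more cells on both sides, and only these are compared. The 2 files share 33 cell barcodes, 29 of them among kept cells, and leaving these out changed no count of lower genes. A level is given as CPM, the UMIs of a gene scaled to the total of its class, and a fold is tenotomy over sham. Brackets hold 95% intervals, which cover counting error only. A gene was measured in a class with at least 25 UMIs over both libraries, and was called lower or higher at 2-fold or more. No value below has a test, since each group is 1 library.

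Across the 8 classes, 79 of the 80 pairs of gene and class were measured. In 57 of the 79 the gene was at least 2-fold lower in tenotomy, in 22 it was within 2-fold, and in 0 it was at least 2-fold higher. The interval lay below 1 in 71 pairs and above 1 in 2. The share of all measured genes with such intervals was not computed, so these counts have no background to be read against. The share of all measured genes that were at least 2-fold lower was between 2.47% and 18.7% in the 8 classes. The share at least 2-fold higher, against which the 0 is to be read, was 33.4% in muscle stem cell-like, 15.8% in mesenchymal progenitor-like, 15.2% in neutrophil-like, 14.1% in myofibre-like, 8.94% in blood endothelial cell-like, 8.64% in monocyte/macrophage-like, 6.4% in tenocyte-like and 5.32% in pericyte or smooth muscle cell-like cells. Egr1 was lower in 8 of 8 classes, Fos and Zfp36 in 7 of 8, Btg2 and Nr4a1 in 6 of 8, Jun, Junb and Atf3 in 5 of 8, Ier2 in 5 of 7 and Fosb in 3 of 8. Summed over the 10 genes, the level was lower in tenotomy in 13 of 13 named classes, from 7.41 times lower in muscle stem cell-like cells to 1.17 times lower in neutrophil-like cells. Of these classes 5 had under 50 cells in a library, and a sum can hide single genes. In B cell-like cells, 246 in tenotomy and 45 in sham, Jun had 499 CPM in tenotomy and 205 CPM in sham. Junb there had 530 CPM in tenotomy and 1112 CPM in sham. Over all kept cells, which also differ in their makeup, Egr1 was 8.22 times lower and Junb 3.5 times lower, the ends of the range of the 10 genes.

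In sham, pericyte or smooth muscle cell-like cells had the highest level of the 8 classes for Fos, Fosb, Jun, Junb, Btg2 and Nr4a1. Blood endothelial cell-like cells were highest for Atf3, Ier2 and Zfp36, and mesenchymal progenitor-like cells for Egr1. None of these first places overlapped the next class. In tenotomy, pericyte or smooth muscle cell-like cells were first for Fos, Jun, Junb, Egr1, Atf3, Btg2 and Nr4a1, but for Fos their interval overlapped that of neutrophil-like cells and for Egr1 that of tenocyte-like cells. Tenocyte-like cells were first for Fosb, blood endothelial cell-like cells for Ier2, and monocyte/macrophage-like cells for Zfp36. At the other end, muscle stem cell-like cells had the lowest tenotomy level of Fos, Atf3, Btg2 and Nr4a1, and for Atf3 alone of these the interval did not overlap that of the next class.

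**Figure D1:**
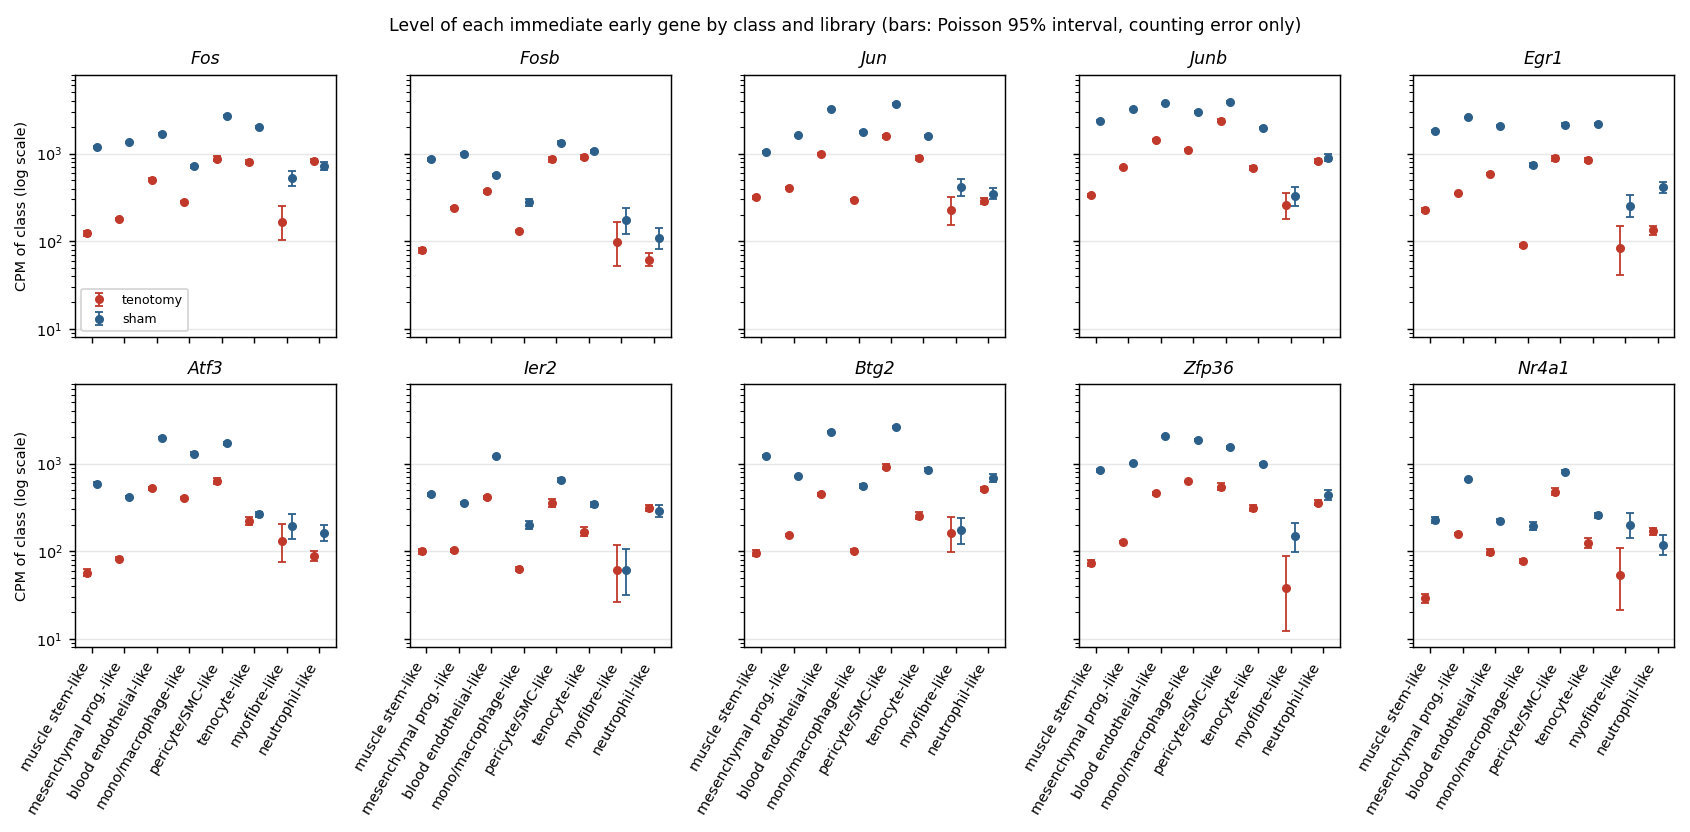
Level of each of the 10 genes (CPM of the class, log scale) in the 8 compared classes, tenotomy in red left of sham in blue. Bars are Poisson 95% intervals for counting error. In muscle stem cell-like cells each gene is lower in tenotomy, and in neutrophil-like cells the points of the libraries lie close together for most genes.

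In CPM of the whole class, the difference was greatest of the 8 classes in muscle stem cell-like cells, which carry the progenitors of muscle fibres. All 10 genes were at least 2-fold lower in tenotomy, where 12.8% of 11295 measured genes were. Their median log2 fold was -3.14, against 0.45 for all measured genes of the class. Btg2 had 95.2 CPM in tenotomy and 1231 CPM in sham, 12.9 times lower (12.0 to 13.9). Zfp36 had 73.0 CPM in tenotomy and 837 CPM in sham, 11.5 times lower (10.5 to 12.5). Both act on mRNA turnover, Btg2 through the deadenylase and Zfp36 through AU-rich elements. Among AP-1 genes, Fos had 123 CPM in tenotomy and 1197 CPM in sham, 9.76 times lower (9.12 to 10.5). Fosb had 78.6 CPM in tenotomy and 861 CPM in sham, 10.9 times lower (10.1 to 11.9). The size of the Fosb difference depended on the processing, with a log2 fold of -3.45 here, -2.26 with each cell thinned to 1000 UMIs, -2.38 with a mean over cells and -2.34 without cycling cells. With the same thinning the log2 fold was -2.58 for Fos, -2.24 for Egr1, -2.29 for Atf3, -2.93 for Btg2 and -2.87 for Zfp36. On the linear scale each difference was over 1.5 times smaller than unthinned and still past 2-fold. Jun was the least different of the 10 there, with 317 CPM in tenotomy and 1038 CPM in sham, 3.28 times lower (3.12 to 3.44). Egr1 had 228 CPM in tenotomy and 1811 CPM in sham, 7.94 times lower (7.55 to 8.36). Nr4a1 had 29.0 CPM in tenotomy and 227 CPM in sham. The class held 526 tenotomy and 519 sham cells, with medians of 13225.5 and 6013 UMIs, so depth moved with the result. Marker RNA listed under other cell types, some of which the cells of this class may make themselves, moved with the libraries in both directions. That of myofibres was at 1901 CPM in tenotomy and 72.0 CPM in sham, that of pericytes and smooth muscle cells at 1308 CPM in tenotomy and 412 CPM in sham, that of neutrophils at 1004 CPM in tenotomy and 462 CPM in sham, and that of monocytes and macrophages at 483 CPM in tenotomy and 123 CPM in sham. Blood endothelial markers were at 181 CPM in tenotomy and 1082 CPM in sham, and lymphatic endothelial markers at 224 CPM in tenotomy and 742 CPM in sham. Their part in the result was not tested. Counted per cell and not as CPM, the 10 genes had 23.4 UMIs in tenotomy and 71.9 in sham. By that count the relative difference was greater in 2 other classes. Monocyte/macrophage-like cells had 20.7 UMIs in tenotomy and 84.2 in sham, and myofibre-like cells 2.33 in tenotomy and 9.53 in sham.

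The clusters behind that class differed between the libraries. Of the tenotomy cells 78.1% were in a cluster led by Ttn, Myog and Tnnt2, genes of differentiating myogenic cells, which held 6 sham cells, and 98.8% of the sham cells were in a cluster led by Gal, Asb5 and Erfe. Within the second cluster, with 115 tenotomy and 513 sham cells and medians of 4476 and 6000 UMIs, 9 of 10 genes were at least 2-fold lower in tenotomy, where 6.99% of 8017 measured genes were. Btg2 had 215 CPM in tenotomy and 1244 CPM in sham there, 5.77 times lower (4.84 to 6.94). Fos had 212 CPM in tenotomy and 1217 CPM in sham, 5.74 times lower (4.81 to 6.91). Fosb, at 379 CPM in tenotomy and 868 CPM in sham, was 2.29 times lower (2.0 to 2.64), against 10.9 times in the whole class. The summed level of the 10 genes was 3147 CPM in tenotomy and 10745 CPM in sham in this cluster, 3.41 times lower, and 1307 CPM in the Myog-led tenotomy cells.

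Mesenchymal progenitor-like cells, the stromal cells that hold the fibro-adipogenic progenitors, also had all 10 genes at least 2-fold lower in tenotomy, where 18.7% of 13975 measured genes were. The median log2 fold was -2.21, against -0.05 for all measured genes. Zfp36 had 128 CPM in tenotomy and 1009 CPM in sham, 7.87 times lower (7.6 to 8.15). Fos had 180 CPM in tenotomy and 1341 CPM in sham, 7.47 times lower (7.25 to 7.69). Egr1, which lies at chr18:34859823-34864984 on mm10, had 351 CPM in tenotomy and 2601 CPM in sham, the highest sham level of Egr1 in the 8 classes, and was 7.41 times lower (7.26 to 7.57). The genes with the smallest difference were Ier2, with 102 CPM in tenotomy and 354 CPM in sham, and Jun, with 404 CPM in tenotomy and 1614 CPM in sham. The class held 1866 tenotomy and 1910 sham cells with medians of 14376 and 8395.5 UMIs. Its own markers were at 39455 CPM in tenotomy and 76829 CPM in sham, tenocyte markers at 1649 CPM in tenotomy and 99.2 CPM in sham, pericyte and smooth muscle markers at 1449 CPM in tenotomy and 265 CPM in sham, and neutrophil markers at 244 CPM in tenotomy and 27.8 CPM in sham. The part of these in the result was not tested. Of the tenotomy cells 59.2% were in a cluster led by Postn, Tnc and Cthrc1, matrix genes, that held 0 sham cells, and 59.1% of the sham cells were in a cluster led by Smoc2, Ccl11 and Gsn. In the 3 mesenchymal clusters with at least 50 cells of each library the count of lower genes was smaller. It was 8 of 10 in the Smoc2-led cluster, where 9.22% of all measured genes were lower. It was 7 of 10 in the Pi16-led cluster of 558 tenotomy and 354 sham cells, where 7.95% were. There Jun had 447 CPM in tenotomy and 444 CPM in sham, a fold with an interval of 0.944 to 1.07, and Fosb had 440 CPM in tenotomy and 391 CPM in sham, a fold of 1.13 (1.05 to 1.2). It was 6 of 10 in the Apod-led cluster, where 7.33% were. The summed level was 2.17 to 2.45 times lower in these 3 clusters.

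In blood endothelial cell-like cells, with medians of 3112 UMIs in tenotomy and 3546.5 UMIs in sham, 9 of 10 genes were at least 2-fold lower in tenotomy, where 8.53% of 11617 measured genes were. Btg2 had 446 CPM in tenotomy and 2301 CPM in sham, 5.17 times lower (4.96 to 5.38). Zfp36 had 459 CPM in tenotomy and 2036 CPM in sham, 4.44 times lower (4.27 to 4.62). Atf3, a stress-responsive factor, had its highest sham level of the 8 classes here, with 523 CPM in tenotomy and 1960 CPM in sham. Fosb was within 2-fold, with 370 CPM in tenotomy and 573 CPM in sham. The result depended on which endothelial cells were set side by side. Of the tenotomy cells 81.2% were in a cluster led by Ctla2a, Tmem252 and Ecscr, and 69.9% of the sham cells were in a cluster led by Timp4, Iigp1 and Aqp1. Within the Timp4-led cluster, with 102 tenotomy and 2146 sham cells, 0 of 10 genes were at least 2-fold lower, where 7.59% of 10101 measured genes were. Fos had 1636 CPM in tenotomy and 1711 CPM in sham there, a fold of 0.956 (0.864 to 1.05), and Egr1 had 2052 CPM in tenotomy and 2240 CPM in sham. Zfp36 was the farthest apart in that cluster, with 1140 CPM in tenotomy and 2219 CPM in sham, a fold of 0.514 (0.456 to 0.578). In the cluster led by Rbp7, Igfbp3 and Stmn2, with 71 tenotomy and 316 sham cells, 8 of 10 genes were lower, where 11.6% of all measured genes were, and the summed level was 6804 CPM in tenotomy and 20570 CPM in sham.

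Monocyte/macrophage-like cells numbered 4560 in tenotomy and 276 in sham, with medians of 6039 and 7365 UMIs, and all 10 genes were at least 2-fold lower in tenotomy, where 12.9% of 11806 measured genes were. Egr1 had 90.0 CPM in tenotomy and 748 CPM in sham, 8.31 times lower (7.81 to 8.84). Jun had 299 CPM in tenotomy and 1771 CPM in sham, 5.93 times lower (5.71 to 6.16). Btg2 had 101 CPM in tenotomy and 551 CPM in sham, 5.43 times lower (5.07 to 5.81). Fosb was the least apart, with 132 CPM in tenotomy and 277 CPM in sham. Zfp36, which restrains inflammatory mRNAs in these cells, had 628 CPM in tenotomy and 1852 CPM in sham. Of the sham cells 77.9% were in a cluster led by Lyve1, Cbr2 and Folr2, genes of resident macrophages, which held 21.6% of the tenotomy cells. Within it, with 984 tenotomy and 215 sham cells and medians of 6760 and 6721 UMIs, all 10 genes were again at least 2-fold lower, where 8.99% of 9991 measured genes were. The summed level was 3750 CPM in tenotomy and 12982 CPM in sham in that cluster. Among markers of other cell types in the class, those of dendritic cells were at 110 CPM in tenotomy and 624 CPM in sham, those of lymphatic endothelium at 242 CPM in tenotomy and 607 CPM in sham, and those of blood endothelium at 118 CPM in tenotomy and 269 CPM in sham. Their part in the result was not tested. The count for the whole class was 2 of 10 with a mitochondrial limit of 5% and with the immediate early and stress genes kept for clustering, and Fos and Jun were then higher in tenotomy. It was 6 of 10 with a mitochondrial limit of 20% and at a finer clustering. Under the first 2 of these settings 122 of the 132 and 197 of the 215 sham cells of the Lyve1-led cluster that remained were in unnamed clusters, and the class had 53 and 76 sham cells.

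**Figure D2:**
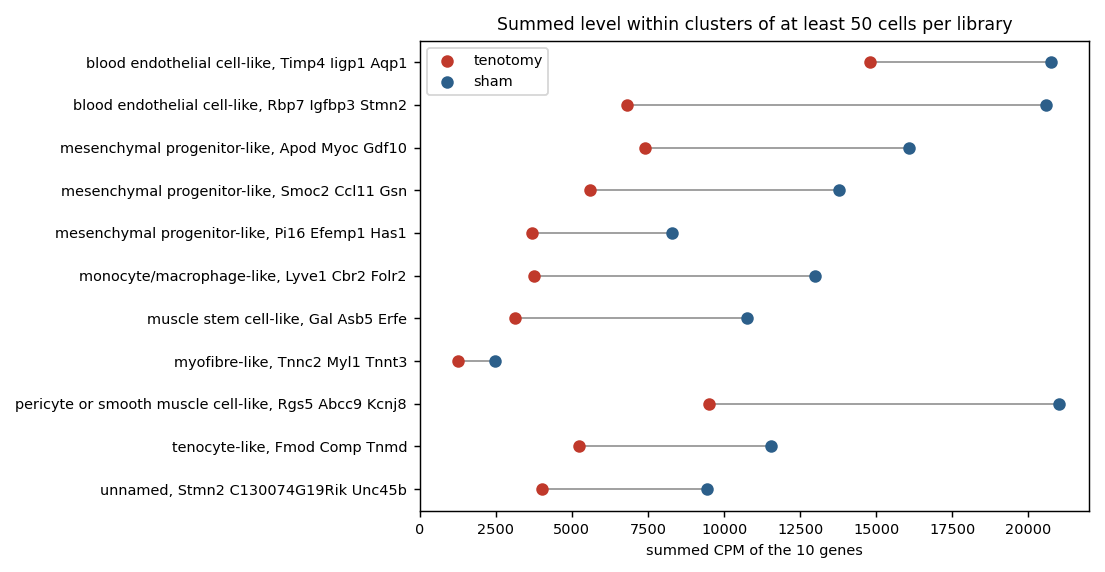
Summed CPM of the 10 genes within each cluster that held at least 50 cells of both libraries, tenotomy in red and sham in blue, labelled by class and leading genes. The level is lower in tenotomy in all 11 clusters, from 3.46 times lower in the Lyve1-led monocyte/macrophage-like cluster to 1.4 times lower in the Timp4-led endothelial cluster.

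Tenocyte-like cells, marked by Fmod, Comp and Tnmd, had 7 of 10 genes at least 2-fold lower in tenotomy, where 9.73% of 9696 measured genes were. The class held 207 tenotomy and 365 sham cells with medians of 7206 and 10054 UMIs, and in its larger cluster 6 of 10 genes were lower, where 8.83% of all measured genes were. Btg2 had 253 CPM in tenotomy and 853 CPM in sham, 3.36 times lower (3.04 to 3.73). Fos had 808 CPM in tenotomy and 2023 CPM in sham, 2.5 times lower (2.36 to 2.65). Fosb was close, with 918 CPM in tenotomy and 1061 CPM in sham, a fold of 0.865 (0.815 to 0.918). Atf3 was also within 2-fold, with 220 CPM in tenotomy and 264 CPM in sham, as was Jun, with 896 CPM in tenotomy and 1605 CPM in sham. The class had the highest tenotomy level of Fosb among the 8 classes, with an interval that overlapped that of pericyte or smooth muscle cell-like cells. With each cell thinned to 1000 UMIs the count was 4 of 10, and with a mean over cells in place of a sum it was 3 of 10.

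Pericyte or smooth muscle cell-like cells had the highest summed level of the 10 genes in both libraries, 9509 CPM in tenotomy and 21016 CPM in sham. The class held 190 tenotomy and 300 sham cells with medians of 4533.5 and 5600 UMIs. At least 2-fold lower in tenotomy were 6 of 10 genes, where 8.14% of 8715 measured genes were. Fos had 871 CPM in tenotomy and 2660 CPM in sham, 3.05 times lower (2.84 to 3.28). Btg2 had 921 CPM in tenotomy and 2635 CPM in sham, 2.86 times lower (2.67 to 3.07). Junb had 2382 CPM in tenotomy and 3891 CPM in sham and was within 2-fold. Nr4a1 had its highest level of the 8 classes here in both libraries, with 476 CPM in tenotomy and 811 CPM in sham. Endothelial marker RNA was present in the class at 42.9% of its level in the endothelial class in tenotomy and 39.5% in sham, and its part in these levels was not tested.

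Neutrophil-like cells, 662 in tenotomy and 80 in sham with medians of 1775.5 and 3790.5 UMIs, were the class in which the summed level differed least among the 8. At least 2-fold lower in tenotomy was 1 of 10 genes, Egr1, where 2.47% of 7054 measured genes were. Egr1 had 133 CPM in tenotomy and 413 CPM in sham, 3.11 times lower (2.61 to 3.72). Fos had 830 CPM in tenotomy and 718 CPM in sham, a fold of 1.16 (1.04 to 1.29). Nr4a1 had 168 CPM in tenotomy and 118 CPM in sham, a fold of 1.42 (1.09 to 1.89). Ier2, at 312 CPM in tenotomy and 288 CPM in sham, and Junb, at 825 CPM in tenotomy and 901 CPM in sham, had intervals that held 1. The summed level was 3574 CPM in tenotomy and 4187 CPM in sham. It differed more between the 2 neutrophil clusters than between the libraries. The cluster led by Retnlg, Hdc and Acod1 had 6567 CPM in tenotomy and 9800 CPM in sham. The cluster led by Camp, Ngp and S100a9 had 2658 CPM in tenotomy and 2254 CPM in sham. Camp and Ngp are granule genes of immature neutrophils. Endothelial marker RNA in this class was at 5.1% of its level in the endothelial class in tenotomy and at 6.71% in sham, and 9 of 11 endothelial markers were found in at least 10% of the sham cells, against 1 of 11 in tenotomy. Its part in the Egr1 difference was not tested. At a finer clustering and with no doublets removed, which left 53 and 54 sham cells, Egr1 was higher in tenotomy.

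Myofibre-like cells, 72 in tenotomy and 51 in sham, had the lowest summed level in both libraries, 1272 CPM in tenotomy and 2469 CPM in sham over the 10 genes. Of 9 measured genes 4 were at least 2-fold lower, where 9.83% of 1424 measured genes were. Fos had 22 UMIs in tenotomy (167 CPM) and 104 in sham (528 CPM), 3.17 times lower (1.99 to 5.28). These UMIs lay in 14 of 72 tenotomy cells (19.4%) and 8 of 51 sham cells (15.7%), and with a mean over cells the log2 fold of Fos was -0.74, within 2-fold. Mesenchymal progenitor marker RNA in the class was at 424 CPM in tenotomy and 4898 CPM in sham, and that of pericytes and smooth muscle cells at 6604 CPM in tenotomy and 335 CPM in sham. Their part in the result was not tested. The other lower genes were Egr1, Zfp36 and Nr4a1, with 5 to 11 UMIs in tenotomy and 29 to 50 UMIs in sham. Ier2, with 8 UMIs in tenotomy and 12 in sham, was not measured.

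Outside the named classes, an unnamed cluster of 147 tenotomy and 226 sham cells with medians of 1017 and 1236.5 UMIs, led by Stmn2, had 8 of 10 genes lower, where 12.5% of all measured genes were.

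**Figure D3:**
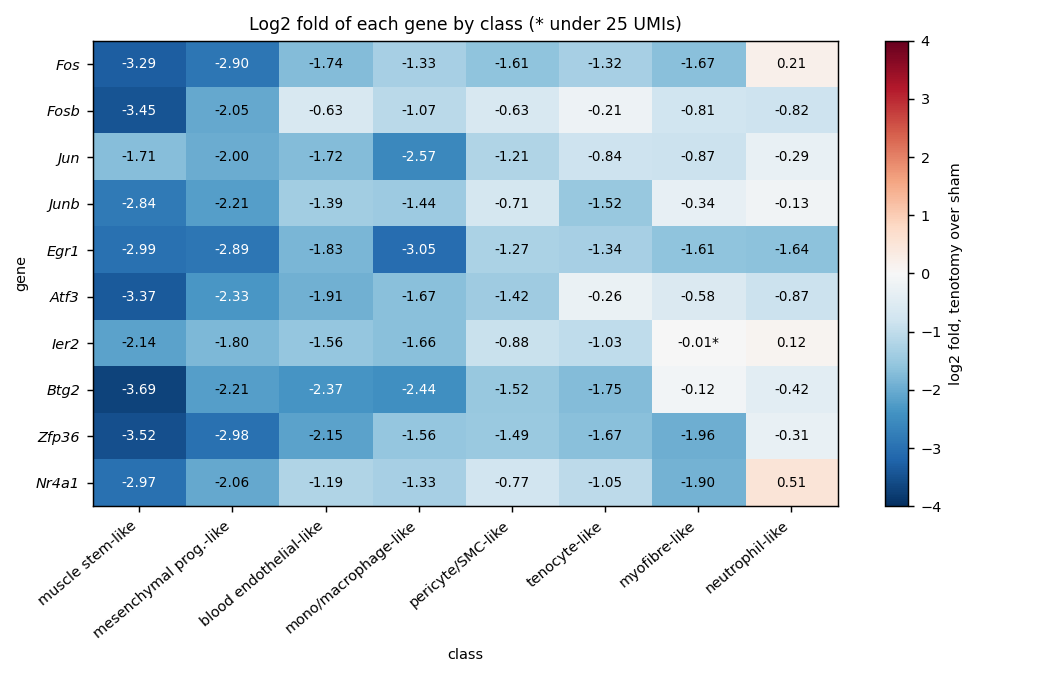
Log2 fold, tenotomy over sham, of each gene (rows) in each compared class (columns), with the value in the cell. Blue is lower in tenotomy. The column of muscle stem cell-like cells runs from -3.69 to -1.71, and that of neutrophil-like cells from -1.64 to 0.51, the highest value in the grid.

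Because tenotomy cells of some classes were deeper and others shallower than sham cells, each cell was thinned to 1000 UMIs and shallower cells were left out. Summed over the thinned cells, 51 of 70 pairs in 7 classes were at least 2-fold lower in tenotomy, 0 were higher, and 66 were below 1. The median log2 fold in muscle stem cell-like cells was -2.39 in thinned and -3.14 in unthinned cells, and in mesenchymal progenitor-like cells -1.88 and -2.21. It was nearly unmoved in monocyte/macrophage-like cells, at -1.58 and -1.61. Myofibre-like cells were too few after thinning for a fold.

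The number of the 10 genes with a UMI in a thinned cell was then counted. At least 3 genes were found in 21.7% (18.2 to 25.5) of 517 tenotomy and 78.0% (74.2 to 81.5) of 518 sham muscle stem cell-like cells. In mesenchymal progenitor-like cells it was 33.0% (30.8 to 35.2) of 1832 tenotomy and 86.8% (85.2 to 88.3) of 1898 sham cells. In monocyte/macrophage-like cells it was 33.9% (32.5 to 35.3) of 4427 tenotomy and 78.9% (73.6 to 83.6) of 275 sham cells. Blood endothelial cell-like cells had 68.0% in tenotomy and 92.8% in sham, and tenocyte-like cells 55.0% in tenotomy and 86.8% in sham. The intervals of the libraries were apart in these 5 classes. Pericyte or smooth muscle cell-like cells were near the ceiling, with 91.4% in tenotomy and 96.6% in sham. Neutrophil-like cells had 54.6% (50.4 to 58.8) in tenotomy and 57.7% (46.0 to 68.8) in sham. Of the 8 compared classes the lowest share was in myofibre-like cells, 9.76% (2.72 to 23.1) of 41 tenotomy and 13.6% (5.17 to 27.4) of 44 sham cells, a class with medians of 1347 and 2373 UMIs before thinning. Free RNA can give a cell UMIs of a gene that it does not express, and no class here is known to lack the 10 genes. Erythroid cell-like cells, with medians of 4139.5 and 8404 UMIs, had at least 3 of the genes in 5.6% (2.28 to 11.2) of 125 tenotomy and 76.0% (54.9 to 90.6) of 25 sham cells. The sham shares of the muscle stem cell-like, mesenchymal progenitor-like, monocyte/macrophage-like, tenocyte-like and neutrophil-like classes lie within the interval of those 25 cells. The part of free RNA in these shares was not tested. Thinning left out 9 tenotomy and 1 sham muscle stem cell-like cells, 100 tenotomy and 2 sham neutrophil-like cells, and 31 tenotomy and 7 sham myofibre-like cells. Unthinned, the shares were 87.8% in tenotomy and 99.6% in sham for muscle stem cell-like cells and 93.9% in tenotomy and 98.5% in sham for mesenchymal progenitor-like cells.

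**Figure D4:**
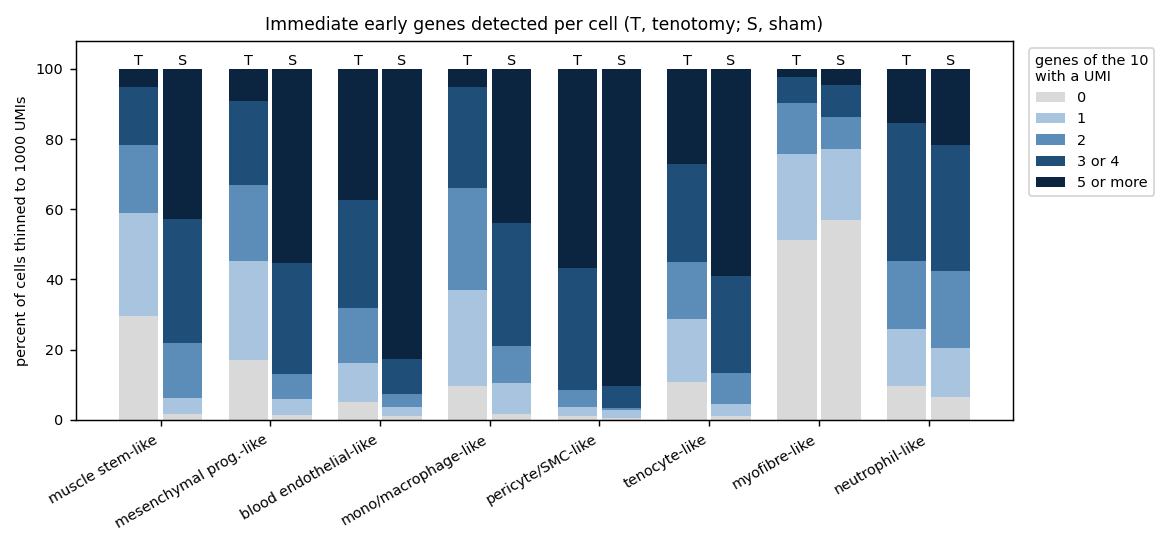
Percent of cells, each thinned to 1000 UMIs, with 0, 1, 2, 3 or 4, and 5 or more of the 10 genes, by class, tenotomy (T) left of sham (S). In muscle stem cell-like cells 29.6% of tenotomy and 1.74% of sham cells had none of the genes, and in neutrophil-like cells the bars of the libraries are alike, at 9.79% and 6.41%.

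For single genes in thinned cells, the tenotomy interval lay below the sham interval for 10 of 10 genes in muscle stem cell-like, mesenchymal progenitor-like, monocyte/macrophage-like and blood endothelial cell-like cells. It did so for 7 of 10 genes in pericyte or smooth muscle cell-like, 6 of 10 in tenocyte-like, 2 of 10 in neutrophil-like and 0 of 10 in myofibre-like cells. The share of all measured genes with intervals apart was not computed, so these counts have no background to be read against. Egr1 was found in 23.4% (19.8 to 27.3) of tenotomy and 61.2% (56.8 to 65.4) of sham muscle stem cell-like cells. Btg2 was found in 13.5% (10.7 to 16.8) of tenotomy and 53.5% (49.1 to 57.8) of sham cells of that class. Fos was found in 13.2% (11.7 to 14.8) of tenotomy and 43.4% (41.2 to 45.7) of sham mesenchymal progenitor-like cells. Atf3 was found in 17.8% (12.8 to 23.8) of tenotomy and 17.1% (13.4 to 21.4) of sham tenocyte-like cells, and Fos in 45.6% (41.4 to 49.8) of tenotomy and 39.7% (28.8 to 51.5) of sham neutrophil-like cells. The genes tended to be found in the same cells. For pairs of genes, the number of cells with both, divided by the number that the product of their shares gives, had a median of 1.68 over 37 pairs in tenotomy and 1.16 over 45 pairs in sham muscle stem cell-like cells. In mesenchymal progenitor-like cells the median was 1.43 in tenotomy and 1.1 in sham. In pericyte or smooth muscle cell-like cells it was 1.06 in tenotomy and 1.04 in sham. The thinned cells of that class held a mean of 5.03 of the 10 genes in tenotomy and 6.87 in sham. The more cells hold a gene, the less room the ratio has above 1. These ratios are over whole classes, which pool clusters of unlike level. In tenotomy the Myog-led muscle stem cell-like cells had a summed level of 1307 CPM and the Gal-led ones 3147 CPM. Pooling can raise the ratio, and its part was not tested. The tenth of muscle stem cell-like cells with the most UMIs of the 10 genes held 44.3% of these UMIs in tenotomy and 37.8% in sham.

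Over the 16 combinations of compared class and library, each gene followed the mean of the other 9, with a Pearson correlation of log2 level from 0.79 (Nr4a1) to 0.94 (Jun). The points share the same 2 libraries, so this is a description. Among 9429 genes ranked by likeness to the mean of the 10, the most alike genes outside the list were Ppp1r15a (0.955), whose product lets stressed cells resume translation, and Jund (0.949), an AP-1 gene. They were followed by Gm12940 (0.939), Pcf11 (0.93), Ephx1 (0.929), Zyg11b (0.92), Bicral (0.918), Gm8797 (0.916), Mafk (0.908) and Slc38a2 (0.908). Likeness takes in differences between classes as well as between libraries, and not the size of a difference. Ppp1r15a was at least 2-fold lower in tenotomy in 5 of 7 measured classes and Jund in 6 of 8. Pcf11 was so in 2 of 7, Slc38a2 in 2 of 8 and Zyg11b in 0 of 7.

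Other lists were read beside the 10 genes. Of 46 further immediate early genes, 31 of 45 measured were at least 2-fold lower and 0 higher in muscle stem cell-like cells, among them Maff, with 56.6 CPM in tenotomy and 714 CPM in sham, and Cebpd, with 260 CPM in tenotomy and 2242 CPM in sham. In mesenchymal progenitor-like cells 22 of 46 were lower and 8 higher. Socs3, a feedback inhibitor of cytokine signals, had 125 CPM in tenotomy and 891 CPM in sham there, and Egr4 had 77 UMIs in tenotomy and 0 in sham, at least 13.1-fold higher with sham set at 3 counts. In monocyte/macrophage-like cells 20 of 45 were lower and 4 higher, and in blood endothelial cell-like cells 10 of 45 were lower and 4 higher. The lower genes of the list were 68.9% of those measured in muscle stem cell-like cells, against 12.8% of all measured genes. They were 47.8% in the mesenchymal progenitor-like, 44.4% in the monocyte/macrophage-like and 22.2% in the blood endothelial cell-like class. Of all measured genes 18.7%, 12.9% and 8.53% were lower there. The higher genes of the list were 17.4%, 8.89% and 8.89% in the same 3 classes, near the 15.8%, 8.64% and 8.94% of all measured genes. In muscle stem cell-like cells 0 were higher, against 33.4% of all measured genes. Klf2, a flow-responsive factor of endothelial cells, had 755 CPM in tenotomy and 2484 CPM in sham in the endothelial class, and Myc had 80.8 CPM in tenotomy and 14.3 CPM in sham, 5.67-fold higher (4.74 to 6.8). Fosl1, an AP-1 gene outside the list of 10, was also higher in that class, with 39.1 CPM in tenotomy and 10.7 CPM in sham, and in tenocyte-like cells, with 69.8 CPM in tenotomy and 8.61 CPM in sham. Pericyte or smooth muscle cell-like cells had 8 of 45 lower and 3 higher, 17.8% and 6.67%, against 8.14% and 5.32% of all measured genes. Tenocyte-like cells had 5 of 45 lower and 3 higher, 11.1% and 6.67%, against 9.73% and 6.4%. Neutrophil-like cells had 2 of 43 lower and 5 higher, 4.65% and 11.6%, against 2.47% and 15.2% of all measured genes. Gadd45b was at 366 CPM in tenotomy and 155 CPM in sham there. Myofibre-like cells had 7 of 16 lower and 4 higher.

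Transcription factors and kinases that act upstream of the 10 genes, such as Srf and Creb1, were mostly within 2-fold. Their counts are given beside the shares of all measured genes. Of that list 0 of 22 measured genes were lower and 0 higher in blood endothelial cell-like cells, against 8.53% and 8.94% of all measured genes. In mesenchymal progenitor-like cells 0 of 22 were lower and 1 higher (4.55%), against 18.7% and 15.8%. In monocyte/macrophage-like cells 2 of 22 were lower and 1 higher, 9.09% and 4.55%, against 12.9% and 8.64%. In muscle stem cell-like cells 3 of 21 were lower and 3 higher, 14.3% each, against 12.8% and 33.4%. In the last class Crem, a cAMP-responsive factor, had 30.4 CPM in tenotomy and 136 CPM in sham. In tenocyte-like cells 0 of 21 were lower and 2 higher (9.52%), against 9.73% and 6.4% of all measured genes. In the pericyte or smooth muscle cell-like, neutrophil-like and myofibre-like classes 0 of the list were lower and 0 higher. Of all measured genes in those classes 8.14%, 2.47% and 9.83% were lower and 5.32%, 15.2% and 14.1% higher. Genes that work with Btg2 and Zfp36 in mRNA decay had 1 of 12 lower and 3 higher in muscle stem cell-like cells. Both shares were smaller than those of all measured genes there, 12.8% lower and 33.4% higher. The lower gene of the list was Tob2, a relative of Btg2, with 56.9 CPM in tenotomy and 215 CPM in sham. The deadenylase gene Cnot6l was higher there, with 173 CPM in tenotomy and 57.8 CPM in sham. In mesenchymal progenitor-like cells 2 of 12 of the decay genes (16.7%) were lower and 0 higher, against 18.7% and 15.8% of all measured genes. In monocyte/macrophage-like cells 0 were lower and 0 higher, against 12.9% and 8.64%. In blood endothelial cell-like cells 1 of 12 (8.33%) was lower and 0 higher, against 8.53% and 8.94%. Tenocyte-like cells had 1 of 12 (8.33%) lower and 0 higher, against 9.73% and 6.4% of all measured genes. Neutrophil-like cells had 0 of 12 lower and 1 (8.33%) higher, against 2.47% and 15.2%. Pericyte or smooth muscle cell-like cells had 0 of 12 and myofibre-like cells 0 of 1 either way. Of all measured genes in these classes 8.14% and 9.83% were lower, and 5.32% and 14.1% higher.

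Heat shock and chaperone genes, which cells induce when proteins unfold, were counted in the same way. Of this list 9 of 16 measured genes were lower and 1 higher in monocyte/macrophage-like and in muscle stem cell-like cells, 56.2% lower in each, where 12.9% and 12.8% of all measured genes were. The 1 higher gene made 6.25% in each, where 8.64% and 33.4% of all measured genes were higher. The inducible chaperone gene Hspa1a had 946 CPM in tenotomy and 7250 CPM in sham in monocyte/macrophage-like cells, and 211 CPM in tenotomy and 2128 CPM in sham in muscle stem cell-like cells. In mesenchymal progenitor-like cells 5 of 16 (31.2%) were lower and 0 higher, against 18.7% and 15.8% of all genes. In blood endothelial cell-like cells 3 of 16 were lower and 2 higher, 18.8% and 12.5%, against 8.53% and 8.94% of all genes. In tenocyte-like cells 0 of 16 were lower and 0 higher, against 9.73% and 6.4% of all genes. The summed level of the list was 9902 CPM in tenotomy and 10238 CPM in sham, although 7 of the 10 immediate early genes were lower there. Pericyte or smooth muscle cell-like cells had 1 of 16 (6.25%) lower and 0 higher, against 8.14% and 5.32% of all genes. Neutrophil-like cells had 0 of 14 lower and 3 (21.4%) higher, against 2.47% and 15.2% of all genes. Among the higher was Hsp90aa1, with 1080 CPM in tenotomy and 488 CPM in sham. Myofibre-like cells had 0 of 11 lower and 3 (27.3%) higher, against 9.83% and 14.1% of all genes. Cryab, a chaperone of the contractile apparatus, had 20274 CPM in tenotomy and 1402 CPM in sham there. Among unfolded protein and integrated stress genes, 7 of 11 were lower and 1 higher in muscle stem cell-like cells, 3 of 12 lower and 0 higher in blood endothelial cell-like cells, and 2 of 12 lower and 2 higher in mesenchymal progenitor-like cells. In the monocyte/macrophage-like, tenocyte-like and pericyte or smooth muscle cell-like classes 1 of 10 was lower and 0 higher. Of all measured genes there 12.9%, 9.73% and 8.14% were lower, and 8.64%, 6.4% and 5.32% higher. In neutrophil-like cells 1 of 11 was lower and 1 higher, 9.09% each, against 2.47% and 15.2%. In myofibre-like cells 0 of 2 went either way, against 9.83% lower and 14.1% higher of all measured genes. Ppp1r15a of that list had 76.4 CPM in tenotomy and 532 CPM in sham in muscle stem cell-like cells.

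**Figure D5:**
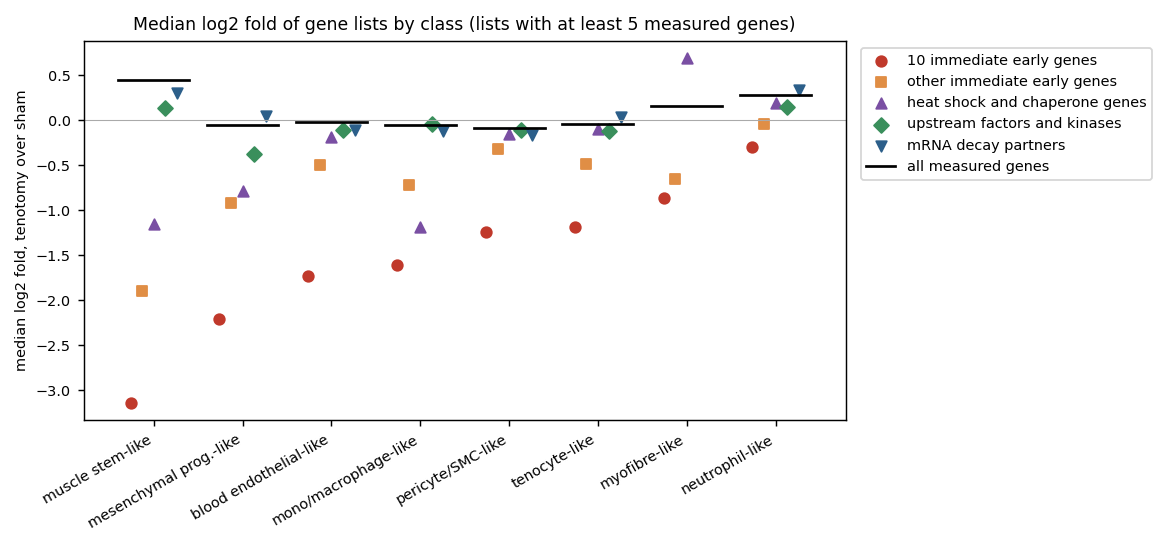
Median log2 fold, tenotomy over sham, of 5 gene lists in each compared class, where at least 5 genes of a list were measured, with the median of all measured genes as a black line. The 10 genes lie lowest in all 8 classes. The heat shock list lies at -1.19 in monocyte/macrophage-like and at 0.69 in myofibre-like cells.

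Malat1, a nuclear RNA, was read as a sign of RNA quality. It had 7472 CPM in tenotomy and 30248 CPM in sham in muscle stem cell-like cells, 8861 CPM in tenotomy and 25549 CPM in sham in mesenchymal progenitor-like cells, and 9264 CPM in tenotomy and 21732 CPM in sham in monocyte/macrophage-like cells. It was thus at least 2-fold lower in the 3 classes in which all 10 genes were lower, and also in myofibre-like cells, with 1840 CPM in tenotomy and 8805 CPM in sham. In neutrophil-like cells it was the same, with 7446 CPM in tenotomy and 7479 CPM in sham, and in tenocyte-like cells it had 20507 CPM in tenotomy and 27362 CPM in sham. Neat1, another nuclear RNA, was within 2-fold in all 8 classes. Median mitochondrial shares were close in muscle stem cell-like cells (4.91% in tenotomy, 5.17% in sham) and mesenchymal progenitor-like cells (2.83% in tenotomy, 3.04% in sham). They were 3.27% in tenotomy and 3.96% in sham in monocyte/macrophage-like cells. Neutrophil-like cells had 0.511% in tenotomy and 0.326% in sham, and myofibre-like cells 0.165% in tenotomy and 0.0307% in sham. The part of heat shock genes, Malat1 and depth in the immediate early gene difference was not tested.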

How the data were processed

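Per the submitters' processing notes, reads were processed with Cell Ranger 4.0.0 on mm10. The authors deposited raw UMI counts per gene and cell barcode for each of the 2 libraries. The tenotomy file held 94556283 UMIs in 11950 barcodes and the sham file 47781353 in 8463. Gene names were matched for 32158 of 32285 identifiers, and coordinates came from GENCODE vM21. The members and all lists were chosen with earlier results of these data known.

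Cells with at least 300 genes, 500 UMIs and at most 10% mitochondrial UMIs were kept (scanpy 1.11.5). Scrublet's own threshold called 1 sham cell, so the tenotomy threshold of 0.213 was used for both and removed 291 tenotomy and 190 sham cells as doublets. Clustering used 2000 variable genes per library without 84 immediate early and stress genes, 30 principal components, 15 neighbours and Leiden resolution 1, with no integration. The 32 clusters were named from marker lists, and 6 stayed unnamed, with limits for naming chosen once the scores were known. UMIs were summed per class and library, with exact Poisson intervals for levels, exact binomial intervals for folds and Clopper-Pearson intervals for shares. A count of 0 was set at 3 counts. Names of list genes are the up to 4 per list and class whose interval bound nearest 1 was farthest from 1. The fold and interval steps were checked on simulated data.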

Additional observations from a re-analysis of the deposited data

Results flagged for a closer look

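Fos in neutrophil-like cells had a fold of 1.16 (1.04 to 1.29), whereas its fold was below 1 in the other 7 classes, from a log2 fold of -3.29 to -1.32. Nr4a1 in neutrophil-like cells had a fold of 1.42 (1.09 to 1.89), whereas it was below 1 in the other 7 classes, from a log2 fold of -2.97 to -0.77. With libraries clustered apart, the log2 fold of Nr4a1 in neutrophil-like cells was -0.15, so that its opposite direction was lost. Both stand here because the class goes the opposite way to the others. The difference between classes was not tested, since each group is 1 library. The neutrophil-like class held 662 tenotomy and 80 sham cells.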

How the results depend on the processing

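No paired analysis was possible because each group is 1 pooled library. Over 15 settings that gave 1158 alternative folds, 799 of 843 folds of lower genes remained at least 2-fold lower, and 44 did not. The number of lower pairs ranged from 46 to 59 over those settings, and was 67 at a 1.5-fold call and 39 at a 3-fold call. Monocyte/macrophage-like cells had 2 lower genes with a mitochondrial limit of 5%, when the log2 folds of Fos, Fosb and Jun were 0.63, 0.26 and 0.66, and 2 with the immediate early and stress genes kept for clustering, when those of Fos, Jun and Egr1 were 0.5, 0.92 and 0.34. They had 6 lower genes with a mitochondrial limit of 20% and at Leiden resolution 2, and 5 at 3-fold. In these 4 settings of filter and clustering the class held 53, 76, 102 and 106 sham cells, against 276, since most sham cells of the Lyve1-led cluster fell into unnamed clusters. Neutrophil-like cells had 3 lower genes when thinned to 1000 or 2000 UMIs, with folds divided by the median of all genes, with libraries clustered apart and at 1.5-fold, 2 with a mean over cells and without cycling cells, and 0 with no doublets removed and at Leiden resolution 2. In the last 2 the log2 fold of Egr1 was 0.48 and 0.58, and 1 and 2 genes were higher, and with a mean over cells 1 was higher. The class had 54 and 53 sham cells in those 2 settings. Of the folds, 83 moved by over 1.5 times, among them those of Fosb, Egr1, Atf3, Btg2 and Zfp36 in muscle stem cell-like cells, which stayed past 2-fold. Tenocyte-like cells had 4 lower genes when thinned to 1000 UMIs, 3 with a mean over cells and 2 at 3-fold. Pericyte or smooth muscle cell-like cells had 10 at 1.5-fold and 1 at 3-fold. Myofibre-like cells had too few cells when thinned or at a mitochondrial limit of 5%. Their share with several genes, tenotomy minus sham, was 3.1 percentage points when thinned to 2000 UMIs and 1.7 for 2 or more genes. The cause of the other changes was not tested.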

Other observations

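The 5 named classes with under 50 cells in a library were not compared gene by gene. Erythroid cell-like cells, 126 in tenotomy and 25 in sham, had a summed level of the 10 genes of 1407 CPM in tenotomy and 8419 CPM in sham, and Btg2 made up much of the tenotomy level, with 593 CPM in tenotomy and 950 CPM in sham. Schwann or other glial cell-like cells, 37 in tenotomy and 68 in sham, had 8133 CPM in tenotomy and 17938 CPM in sham. T or natural killer cell-like cells had 2186 CPM in tenotomy and 4522 CPM in sham, dendritic cell-like cells 2338 CPM in tenotomy and 3724 CPM in sham, and B cell-like cells 2514 CPM in tenotomy and 3053 CPM in sham.

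An unnamed cluster of 467 sham and 2 tenotomy cells, with a median of 1497 UMIs in sham, had a summed level of 11434 CPM in sham, close to that of the named mesenchymal progenitor-like sham cells.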
